A study of Homo sapiens with 6 samples.

Results

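The genes described here move cholesterol between membranes inside the cell or store it as an ester, and they were followed in U2OS cells after silencing of SQLE. They were taken by symbol from the count table, through the Ensembl identifier of each row, and all 10 were found among the 19937 genes of the table: NPC1, NPC2 and LIPA for export of sterol from the lysosome, OSBP, OSBPL2, OSBPL9, STARD3 and GRAMD1A for transfer of sterol between membranes, and SOAT1 and NCEH1 for making and cleaving cholesteryl esters. The U2OS line is an established line from a human osteosarcoma. The shSQLE group was 3 libraries from U2OS cells that stably carried a hairpin against SQLE, which encodes squalene epoxidase, and the shControl group was 3 libraries from U2OS cells that carried a scrambled hairpin. Both constructs were in the lentiviral plasmid pGIPZ, and both populations had gone through puromycin selection. A single hairpin was used for SQLE, the labels do not name it, and nothing in them says that replicate libraries are separate cultures, so the p-values below measure only the spread between these libraries.

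Cholesterol enters cells in lipoprotein particles whose esters are cleaved in the lysosome by the acid lipase LIPA. NPC2 is a small soluble protein that takes up the freed cholesterol and hands it to NPC1, a membrane protein of the lysosome, and loss of either causes Niemann-Pick disease type C, in which cholesterol piles up in lysosomes. From there, and from the plasma membrane, transfer proteins carry sterol across membrane contact sites. Cholesterol that reaches the endoplasmic reticulum (ER) in excess is esterified by SOAT1 and kept in lipid droplets. Squalene epoxidase acts in the other supply route, the synthesis of cholesterol in the ER.

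Each library held between 12212378 and 14393292 counts on genes. Normalized counts below are counts at the mean effective library size after TMM scaling, and a gene was called when its adjusted p in edgeR's quasi-likelihood test (Benjamini-Hochberg over all 12450 genes tested) was under 0.05. SQLE itself had 1349, 1867 and 1924 normalized counts in shControl, against 229, 204 and 219 in shSQLE, and fell to 12.7% of its shControl mean (edgeR adjusted p = 0.000299). Over all genes tested 354 were called lower and 46 higher in shSQLE; with DESeq2 the split was 556 lower and 158 higher, and with offsets for GC content and transcript length 1080 lower and 1508 higher. The osteoblast-lineage markers SPARC, RUNX2, COL1A1 and SPP1 were detected in every library, SP7 and IBSP had no count, and ALPL, COL1A2 and BGLAP had at most 6 counts in any library. Of the leukocyte, epithelial and endothelial markers, only EPCAM (46 to 76 counts) and PECAM1 (2 to 15 counts) exceeded 6 counts in any library. shControl replicate 1 stood apart from the other shControl libraries. Its counts differed from theirs by 53.9 and 63.6 times the variance of sampling (chi-square per degree of freedom), whereas the other same-group pairs gave 2.83 to 15.7. On the first principal component (47.0% of the variance) it lay at -10.0, among the shSQLE libraries (-26.8 to -8.54), while the other shControl libraries lay at 30.3 and 34.2. On the second component (37.8% of the variance) it lay at -43.7, apart from every other library. There the shSQLE libraries lay at 4.93 to 24.98, and the other shControl libraries at -0.425 and 3.61. The counts of shControl replicate 1 differed from those of the shSQLE libraries by 26.4 to 53.8 times the variance of sampling. For the other shControl libraries this was 23.4 to 51.9 times, a similar range. By this measure shControl replicate 1 was still nearer to each shSQLE library than to either of the other shControl libraries (53.9 and 63.6 times). The margin was small for shSQLE replicate 3, at 53.8 against 53.9 times. Results are therefore also given without that library.

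All 10 genes passed the filter on low counts, and 1 of them, NPC1, was called, against a background of 3.21% of all genes tested. No other member was called, and NPC1 was also the only one at an unadjusted p under 0.05, where the background was 14.7%. The groups did not overlap, with shSQLE lower, in 2 members (NPC1 and NPC2; background 12.1%), and with shSQLE higher in 0 members (background 10.0%). The median log2 fold change of the members was -0.09, beside -0.01 over all genes tested, and 7 of the 10 lay below 0. By role, all 3 lysosomal genes lay below 0 (median -0.25), 4 of the 5 transfer proteins did (median -0.06), and SOAT1 and NCEH1 lay above it (median 0.16). When shControl replicate 1 was left out, the 3 lysosomal genes were still below 0, but SOAT1 and NCEH1 were below it too (-0.03 and -0.06) and STARD3 and GRAMD1A were above it (0.26 and 0.14), so the signs by role depended on that library. In these bulk libraries, fewer transcripts per cell cannot be told apart from fewer cells that carry them.

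**Figure D1:**
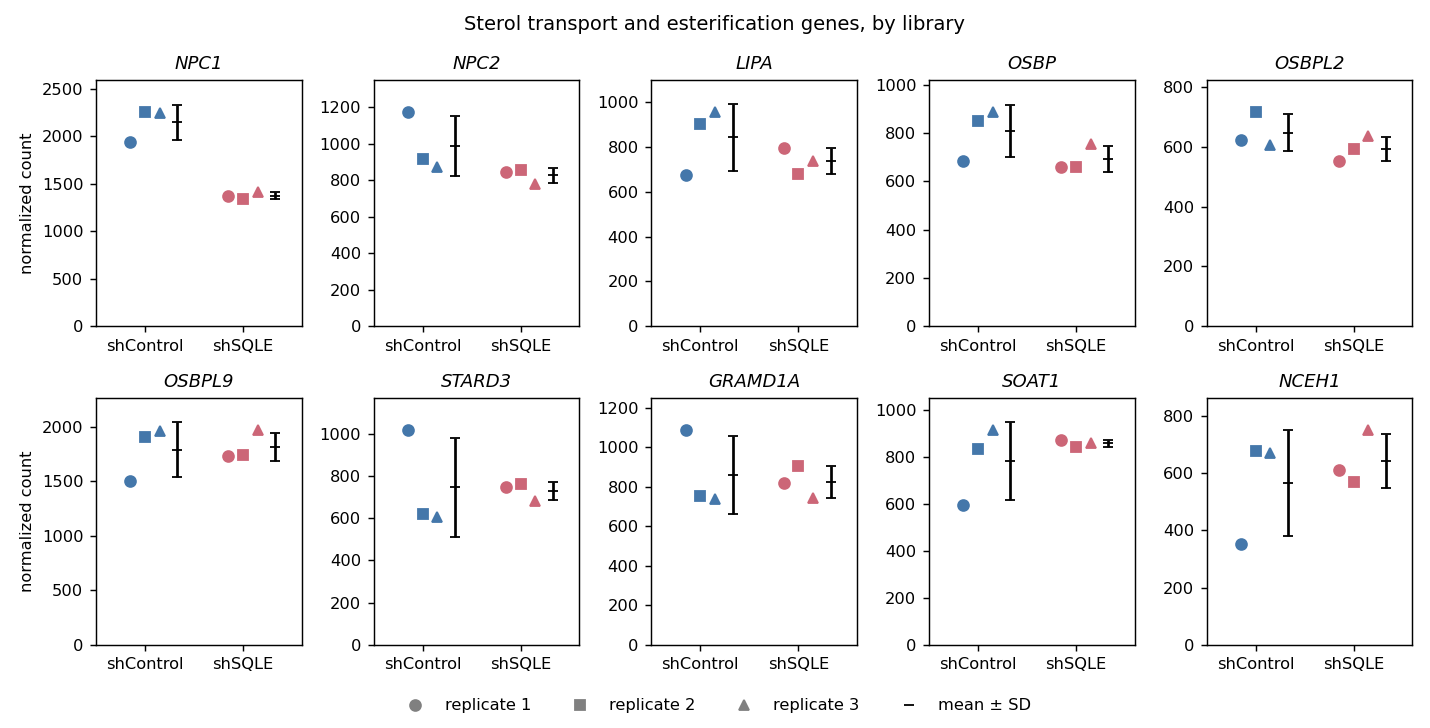
Normalized counts (y axis, from 0) of the 10 genes in each shControl and shSQLE library, with symbols for the replicate numbers and the group mean ± SD in black. NPC1 is the gene with the widest gap between the groups, and shControl replicate 1 is the lowest of the 6 libraries for LIPA, OSBPL9, SOAT1 and NCEH1 and the highest for NPC2, STARD3 and GRAMD1A.

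NPC1 (ENSG00000141458) lies on the - strand of chromosome 18 (hg38, 23506184 to 23586506) with 25 exons in its canonical GENCODE v44 transcript, and NPC2 (ENSG00000119655) lies on the - strand of chromosome 14 (74476192 to 74494177) with 5 exons. The RefSeq windows around their starts (GRCh38.p14; 250 bases before the start to 50 after it) are shown because these partners act on the same cholesterol molecule in succession and only NPC1 was called. They are chr18:23586457-23586756 for NPC1 and chr14:74493256-74493555 for NPC2, both on the - strand, and capitals mark GGGCGG, the GC box, on either strand.
NPC1: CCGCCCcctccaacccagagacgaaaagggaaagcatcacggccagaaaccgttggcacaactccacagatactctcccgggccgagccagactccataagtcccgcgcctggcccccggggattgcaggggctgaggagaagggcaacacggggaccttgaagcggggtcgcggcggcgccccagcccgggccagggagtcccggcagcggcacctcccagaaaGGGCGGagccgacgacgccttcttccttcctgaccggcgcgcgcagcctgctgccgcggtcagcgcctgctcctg
NPC2: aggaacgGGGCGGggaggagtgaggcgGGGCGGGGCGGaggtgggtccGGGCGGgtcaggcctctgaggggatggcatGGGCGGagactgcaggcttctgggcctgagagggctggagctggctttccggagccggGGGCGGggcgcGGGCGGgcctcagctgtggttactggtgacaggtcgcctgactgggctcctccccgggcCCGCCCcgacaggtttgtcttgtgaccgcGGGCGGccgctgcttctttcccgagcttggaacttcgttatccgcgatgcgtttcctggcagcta
The GC box occurred 2 times in the NPC1 window and 9 times in the NPC2 window, counting both strands, and 69.7% and 70.3% of the bases were G or C. Over the windows nearest to the canonical start of each of the 10 genes, GGGCGG was present in 8, beside 45% of all 35116 windows, and CCAAT was present in 6, beside 34.6%. The window used for OSBPL9 starts 98820 bases from its canonical start. CACGTG, a form of the E-box, and TCACCCC, part of the sterol regulatory element, were in none of the 10, beside 7.26% and 5.48% of all windows. Other forms of the E-box were not searched for. The 35116 windows were not limited to those nearest a canonical start or to genes that passed the filter on low counts. The shares are therefore not matched to the 10 genes. All of these are matches of letters, and no binding was measured.

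Among the lysosomal genes, NPC1 fell. Its normalized count was 1937, 2258 and 2243 in shControl, against 1372, 1336 and 1416 in shSQLE, in the order of replicates 1, 2 and 3 that is kept for all values by library. The groups were well apart, and the lowest shControl value was that of replicate 1. The means were 2146 ± 182 (SD, n = 3) and 1375 ± 40.0 (SD, n = 3), so shSQLE stood at 64.1% of shControl. The log2 fold change was -0.64 (standard error 0.11, 95% interval -0.89 to -0.39, edgeR adjusted p = 0.0200). In the 13 alternative fits it ranged from -0.71 to -0.58. The call was lost in each of the 5 fits that left out a library other than shControl replicate 1, with adjusted p between 0.0835 and 0.142 in edgeR; over all genes these fits called between 109 and 211. Without shControl replicate 1 the log2 fold change was -0.71 (edgeR adjusted p = 3.20e-05), in a fit that called 33.9% of all genes tested. NPC1 shares 619 exonic bases with RMC1 on the opposite strand, and RMC1 had 237 ± 13.0 and 221 ± 5.67 normalized counts (SD, n = 3 each), below the counts of NPC1. The log2 fold change of RMC1 was -0.10 (edgeR adjusted p = 0.788), and its part in the NPC1 counts was not tested.

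NPC2, the soluble partner, had 1176, 915 and 872 normalized counts in shControl, against 844, 858 and 780 in shSQLE. The groups did not overlap, but the gap was narrow and shControl replicate 1 was far above the other shControl libraries. The means were 988 ± 164 and 828 ± 41.7 (SD, n = 3 each), and the log2 fold change of -0.25 had a 95% interval from -0.58 to 0.07 (edgeR adjusted p = 0.485). Without shControl replicate 1 it was -0.11. In TPM, a level scaled to transcript length and to the library total, the shControl libraries lay close together at 176, 172 and 170 and the shSQLE libraries at 138, 136 and 142. The NPC2 length used is the same in every library, so TPM and normalized counts differ here only in how libraries are scaled. Which scaling is nearer the truth was not tested. In the fit with offsets for GC content and transcript length, where 20.8% of all genes tested were called, the log2 fold change of NPC2 was -0.30 (edgeR adjusted p = 0.00612). NPC2 shares 103 exonic bases with ISCA2 on the opposite strand, whose means were 505 ± 74.2 and 497 ± 41.4 (SD, n = 3 each).

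LIPA, which frees cholesterol from its esters in the lysosome, had 674, 902 and 957 normalized counts in shControl, against 798, 680 and 739 in shSQLE. The groups overlapped, with shControl replicate 1 the lowest library of all, while the other shControl libraries lay above every shSQLE library. The log2 fold change was -0.19 (95% interval -0.55 to 0.17, edgeR adjusted p = 0.662). Without shControl replicate 1 it was -0.33 and was called (edgeR adjusted p = 0.0174), in a fit that called 33.9% of all genes tested. LIPA (ENSG00000107798) lies on chromosome 10 (89213569 to 89414557, - strand), and its span holds the interferon-stimulated genes IFIT1, IFIT2 and IFIT3 on the opposite strand. IFIT2 and IFIT3 share 65 and 94 exonic bases with it and were at 24.5% and 22.1% of their shControl means, whereas LIPA was at 87.5%. IFIT1, at 26.0%, lies within the span and shares no exonic base with LIPA, and IFIT1B was near 0 counts. Whether the counting used the strand is not given in the sources used here, and the part of these neighbours in the LIPA counts was not tested.

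Of the transfer proteins, none was called. OSBP (ENSG00000110048) lies on chromosome 11 (59574398 to 59615774, - strand). OSBP, which exchanges cholesterol for the lipid PI4P between ER and Golgi, had 685, 852 and 889 normalized counts in shControl, against 662, 659 and 754 in shSQLE. The value of shControl replicate 1 fell within the range of shSQLE, and the other shControl libraries lay above that range. Its log2 fold change was -0.23 (95% interval -0.54 to 0.09, edgeR adjusted p = 0.539). Without shControl replicate 1 it was -0.33 (edgeR adjusted p = 0.0168), in a fit that called 33.9% of all genes tested. The related protein OSBPL2 (ENSG00000130703; chromosome 20, 62231922 to 62296213, + strand) had 621, 717 and 605 normalized counts in shControl and 554, 591 and 635 in shSQLE, and the groups overlapped. Its log2 fold change was -0.13 (95% interval -0.41 to 0.16), one that was not called in any of the 13 alternatives. OSBPL9 (ENSG00000117859; chromosome 1, 51577179 to 51798427, + strand), a further member of this family, had 1505, 1905 and 1968 normalized counts in shControl and 1737, 1744 and 1969 in shSQLE. Its highest values in the groups were nearly equal, and the log2 fold change was 0.02 (95% interval -0.29 to 0.33). The sign of the OSBPL9 value turned to -0.03 with library size only and to -0.09 without shControl replicate 1. NRDC, on the opposite strand, shares 192 exonic bases with OSBPL9 and had a log2 fold change of 0.02 (edgeR adjusted p = 0.972).

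STARD3 binds cholesterol on late endosomes, and GRAMD1A, also called Aster-A, brings cholesterol from the plasma membrane to the ER. STARD3 (ENSG00000131748) lies on chromosome 17 (39637090 to 39664201, + strand) and GRAMD1A (ENSG00000089351) on chromosome 19 (34994784 to 35026471, + strand). STARD3 had 1020, 619 and 605 normalized counts in shControl, against 750, 765 and 683 in shSQLE. All 3 shSQLE libraries lay between shControl replicate 1 and the other shControl libraries. The log2 fold change was -0.03 (95% interval -0.51 to 0.45, edgeR adjusted p = 0.974). Without shControl replicate 1 it was 0.26 (edgeR adjusted p = 0.0457), in a fit that called 33.9% of all genes tested. GRAMD1A had 1084, 752 and 737 normalized counts in shControl and 818, 905 and 744 in shSQLE. It had the same arrangement of libraries except that shSQLE replicate 3 fell among the lower shControl values, and its log2 fold change was -0.06 (95% interval -0.46 to 0.34), or 0.14 without shControl replicate 1, where it was not called. With offsets for GC content and transcript length the log2 fold changes of STARD3 and GRAMD1A were 0.04 and 0.03.

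SOAT1 (ENSG00000057252) lies on chromosome 1 (179293714 to 179358680, + strand) and NCEH1 (ENSG00000144959) on chromosome 3 (172630249 to 172711218, - strand). SOAT1, the acyltransferase that esterifies cholesterol in the ER, had 596, 835 and 912 normalized counts in shControl, against 870, 842 and 859 in shSQLE. The shSQLE libraries were close to each other, and shControl replicate 1 lay far below the other shControl libraries. The means were 781 ± 165 and 857 ± 14.1 (SD, n = 3 each), with a log2 fold change of 0.13 (95% interval -0.25 to 0.51, edgeR adjusted p = 0.795). Without shControl replicate 1 the log2 fold change of SOAT1 was -0.03, and with offsets for GC content and transcript length it was 0.30 (edgeR adjusted p = 0.0264). The fit with the offsets called 20.8% of all genes tested. NCEH1, a hydrolase that cleaves cholesteryl esters, had 352, 677 and 672 normalized counts in shControl and 612, 572 and 751 in shSQLE. Here the value of shControl replicate 1 was far below every other library. The log2 fold change of NCEH1 was 0.18 with the widest interval of the 10 genes (95% interval -0.39 to 0.76), and it was -0.06 without shControl replicate 1.

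**Figure D2:**
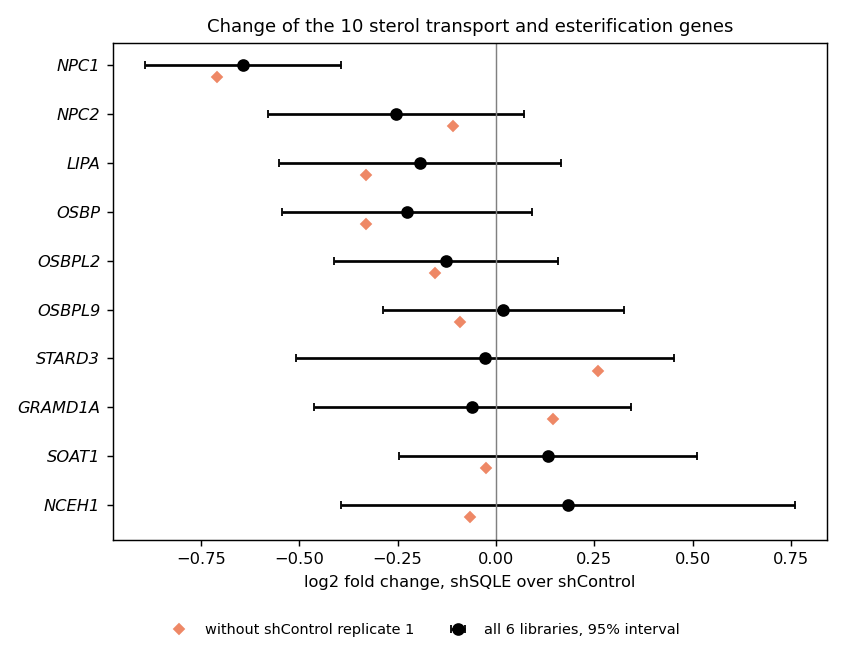
Log2 fold change of shSQLE over shControl (x axis) for each of the 10 genes, with all 6 libraries (black points, bars are 95% intervals from edgeR's quasi-likelihood test) and without shControl replicate 1 (orange diamonds). The interval of NPC1 lies from -0.89 to -0.39, and the intervals of the other 9 genes include 0.

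The shControl replicate 1 values varied with the base composition of the transcripts, and also with their length. In the GC content of the canonical transcript, SOAT1, LIPA, NCEH1 and OSBPL9 had 39.5%, 40.0%, 40.6% and 40.6%, and in these 4 genes shControl replicate 1 was the lowest of the 6 libraries. STARD3 and GRAMD1A had 60.3% and 63.6%, and there it was the highest. NPC1, OSBP and OSBPL2, with intermediate GC content, had it inside the range of the others, and NPC2, with 47.5% and by far the shortest transcript (821 nt), had it as the highest. It lay outside the range of the other 5 libraries in 7 of the 10 genes, which is near the 64.8% of all genes tested (8 of the 10 genes, and 64.7% of all genes tested, on the per-length scale). Over the 10 genes, Spearman's rho between GC content and the difference in log2 CPM of shControl replicate 1 from the mean of the other shControl libraries was 0.88. It was 0.74 over 12447 genes tested, whose median difference was -0.47 below 45% GC and 0.49 above 55%. With transcript length in place of GC content, rho was -0.47 over the 10 genes and -0.56 over the genes tested. These are descriptions across genes that share the same libraries. For the mean of shSQLE against the same shControl libraries, rho was 0.15 over the 10 genes and 0.42 over all genes tested, with medians of -0.19 and 0.17 in the same ranges of GC content. NPC1, at 49.1% GC, had the lowest shSQLE difference of the 10, at -0.71. With offsets for GC content and transcript length, NPC1 was called with a log2 fold change of -0.58 (edgeR adjusted p = 0.000105), and the median over all genes tested was 0.06. That fit called 20.8% of all genes tested.

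**Figure D3:**
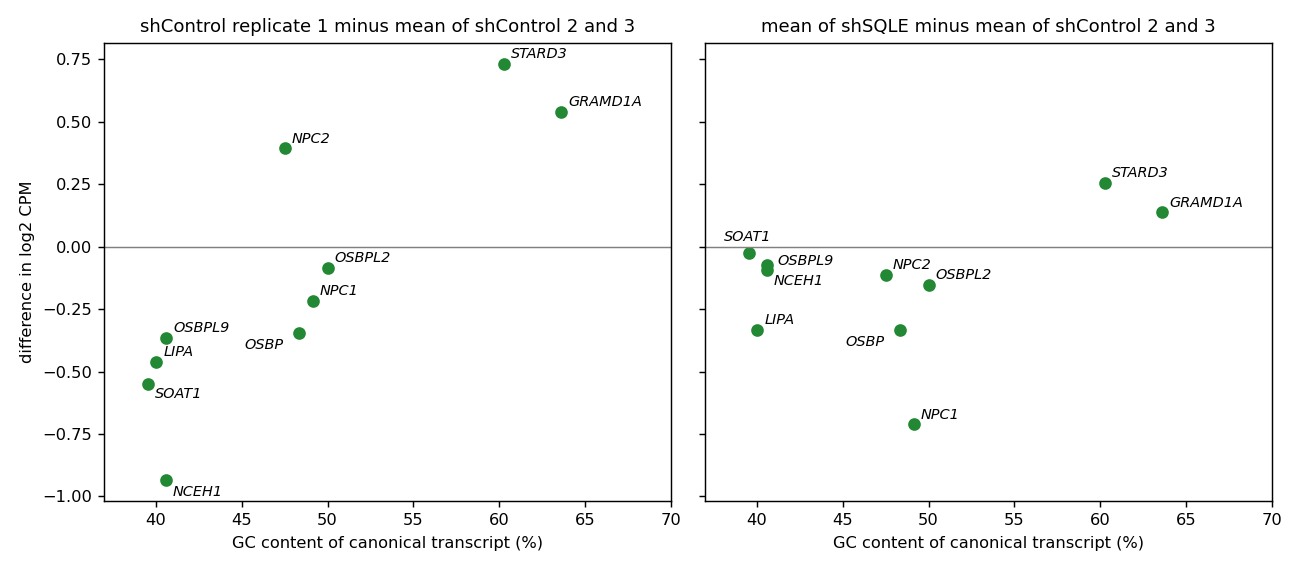
Difference in log2 CPM (y axis) from the mean of shControl replicates 2 and 3, plotted for each of the 10 genes against the GC content of its canonical transcript (x axis, percent), for shControl replicate 1 (left) and for the mean of the 3 shSQLE libraries (right). On the left the points run from -0.93 for NCEH1 to 0.73 for STARD3, and on the right NPC1 lies lowest at -0.71.

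Ratios of 2 of the genes within a library do not depend on how libraries are scaled, and 3 were tested. The log2 ratio of LIPA to NPC1 counts was -1.52, -1.32 and -1.23 in shControl, against -0.78, -0.97 and -0.94 in shSQLE. The groups did not overlap, and the ratio was 0.46 higher in shSQLE (exact permutation test, two-sided, with p = 0.1 as the lowest value that 3 against 3 libraries allow, and 0.3 adjusted over the 3 ratios). It stayed 0.38 to 0.52 higher when each library was left out. NPC1 is part of this ratio and of the next, so neither is independent of the fall of NPC1 given above. The log2 ratio of NPC1 to NPC2 was 0.72, 1.30 and 1.36 in shControl and 0.70, 0.64 and 0.86 in shSQLE. The ratio in shControl replicate 1 lay among those of shSQLE, and the difference of -0.40 gave p = 0.2 (exact permutation test, 0.3 adjusted). The difference was -0.60 without shControl replicate 1 (exact permutation test, unadjusted p = 0.1), and leaving out each library in turn gave -0.60 to -0.28. SOAT1 to NCEH1, the ester-forming against the ester-cleaving enzyme, gave 0.76, 0.30 and 0.44 in shControl and 0.51, 0.56 and 0.19 in shSQLE. The groups overlapped widely, with a difference of -0.08 (exact permutation test, p = 0.8, also 0.8 adjusted). These ratios still carry any difference in GC content or length between the paired transcripts.

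**Figure D4:**
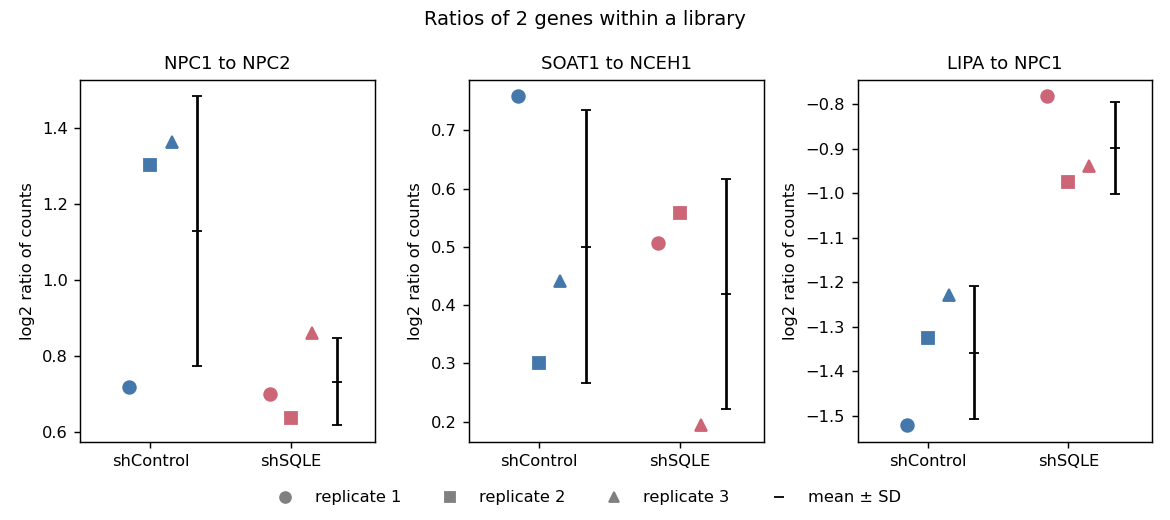
Log2 ratio of the counts of 2 genes in the same library (y axis; the axes do not start at 0), with symbols for the replicate numbers and the group mean ± SD in black. For LIPA to NPC1 all 3 shSQLE libraries (-0.97 to -0.78) lie above all 3 shControl libraries (-1.52 to -1.23), and the groups overlap for the other ratios.

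Compared per length, NPC2 was the most abundant of the 10 transcripts in shControl, with 173 ± 3.30 TPM (SD, n = 3), and its lowest shControl library lay above the highest of the next gene. OSBPL9, NPC1, LIPA, GRAMD1A and STARD3 followed with mean levels of 72.3 ± 19.0, 66.3 ± 14, 50.1 ± 14.9, 46.1 ± 3.62 and 38.3 ± 6.14 TPM, and each of these overlapped its neighbour in the order. STARD3 lay above the next gene without overlap. The lowest levels were those of OSBP, OSBPL2, NCEH1 and SOAT1 with 25.3 ± 6.53, 24.0 ± 4.35, 18.8 ± 7.98 and 17.0 ± 5.54 TPM, again with overlap between neighbours. In shSQLE the order was similar, with NPC1 at 40.0 ± 4.16 TPM (SD, n = 3) in place 5 where it had been in place 3 in shControl. GRAMD1A and LIPA, just above it in shSQLE, had means of 42.5 and 41.0 TPM. Their libraries overlapped those of NPC1, so its place in shSQLE was not resolved. When the summed length of all annotated exons replaced the canonical transcript, an alternative chosen after seeing the data, the mean shControl levels moved by over 1.5 times for NPC2 (to 94.0), OSBPL9 (to 44), OSBP (to 39.8), NCEH1 (to 30.1), SOAT1 (to 28.2) and OSBPL2 (to 12.4 TPM). NPC2 was still first, but NPC1 then stood above OSBPL9, OSBP stood above GRAMD1A and STARD3 (35.6 and 31.1 TPM), and OSBPL2 was last. The order of the genes after NPC2 therefore depended on the length used.

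The genes whose log2 CPM followed that of NPC1 most closely over the 6 libraries were INHBA, ERO1B and GREM1, with Pearson correlations of 0.9998, 0.999 and 0.9987. A correlation above 0.95 with NPC1 was found for 339 genes, out of the 12450 genes tested. The named genes were picked as the highest of all these correlations. NPC1 itself separated the groups in the same 6 libraries, so the correlations carry that group difference. Shared regulation was not tested.

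A further 36 genes of sterol transport were listed, of which 32 passed the filter on low counts. None was called by edgeR with all 6 libraries (0 lower and 0 higher). At an unadjusted p under 0.05 there were 2 lower and 2 higher of the 32, a share no higher than the background of 14.7%. DESeq2 called 2 of them, and it called 5.15% of the genes it tested. The median log2 fold change was -0.0015, with 17 genes below 0 and 15 above.

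STARD4, a soluble protein that carries cholesterol to the ER, gave the largest difference of these 32 genes. Its normalized count was 416, 862 and 824 in shControl, against 398, 290 and 393 in shSQLE. The groups did not overlap, but shControl replicate 1 lay just above the shSQLE libraries and far below the other shControl libraries. The log2 fold change was -0.96 (standard error 0.28, edgeR adjusted p = 0.136). STARD4 was called by DESeq2 (-0.94, DESeq2 adjusted p = 0.0201) and by edgeR without shControl replicate 1 (-1.23, adjusted p = 1.72e-05). These fits called 5.15% and 33.9% of the genes they tested. GRAMD1B, the Aster-B paralog of GRAMD1A, was the other gene with an unadjusted p under 0.05 and a lower value, with a log2 fold change of -0.28 (edgeR adjusted p = 0.288). Of the 8 listed genes of this group, STAR and STARD6 did not pass the filter.

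All 8 other OSBP-related proteins passed the filter, with 4 below 0 and 4 above. OSBPL10 had 611, 719 and 763 normalized counts in shControl, against 950, 941 and 957 in shSQLE. Every shSQLE library lay above every shControl library, and the shSQLE values were close together. The log2 fold change was 0.44 (standard error 0.12, 95% interval 0.17 to 0.72, edgeR adjusted p = 0.113). It was called by DESeq2 (0.46, DESeq2 adjusted p = 0.0232) and by edgeR without shControl replicate 1 (0.36, adjusted p = 0.00740), fits that called 5.15% and 33.9% of the genes they tested. Thus within the OSBP family the values ran from -0.30 for OSBPL8 to 0.44 for OSBPL10.

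Among the ER anchors and PI4P enzymes that serve sterol exchange, PI4KA, a kinase that makes PI4P at the plasma membrane, had the smallest p, with a log2 fold change of 0.29 (edgeR adjusted p = 0.284). VAPA and VAPB, the ER proteins to which many transfer proteins attach, were at 0.06 and -0.01. Of the 7 lysosomal partners, SCARB2, a membrane protein of the lysosome, had the smallest p. Its log2 fold change was -0.38 with all libraries (edgeR adjusted p = 0.352) and -0.54 without shControl replicate 1 (edgeR adjusted p = 0.000877). In the same fits LAMP1, an abundant lysosomal membrane protein, stood at 0.22 and 0.29 (edgeR adjusted p = 0.448 and 0.0163). LAMP2 stood at -0.09 and -0.25 (edgeR adjusted p = 0.884 and 0.0377). The lysosomal partners thus had values on both sides of 0, with 3 below and 4 above. Of the 6 other ester and lipid droplet genes, 4 passed the filter. PLIN2, which coats lipid droplets, had the smallest p of these, with a log2 fold change of -0.20 (edgeR adjusted p = 0.451). SOAT2, the other cholesterol acyltransferase, had at most 2.31 normalized counts in any library, and CES1 had none. Without shControl replicate 1, 6 of the 32 related genes were called lower and 3 higher, which as a share is no more than the 33.9% of all genes that were called in that fit.

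**Figure D5:**
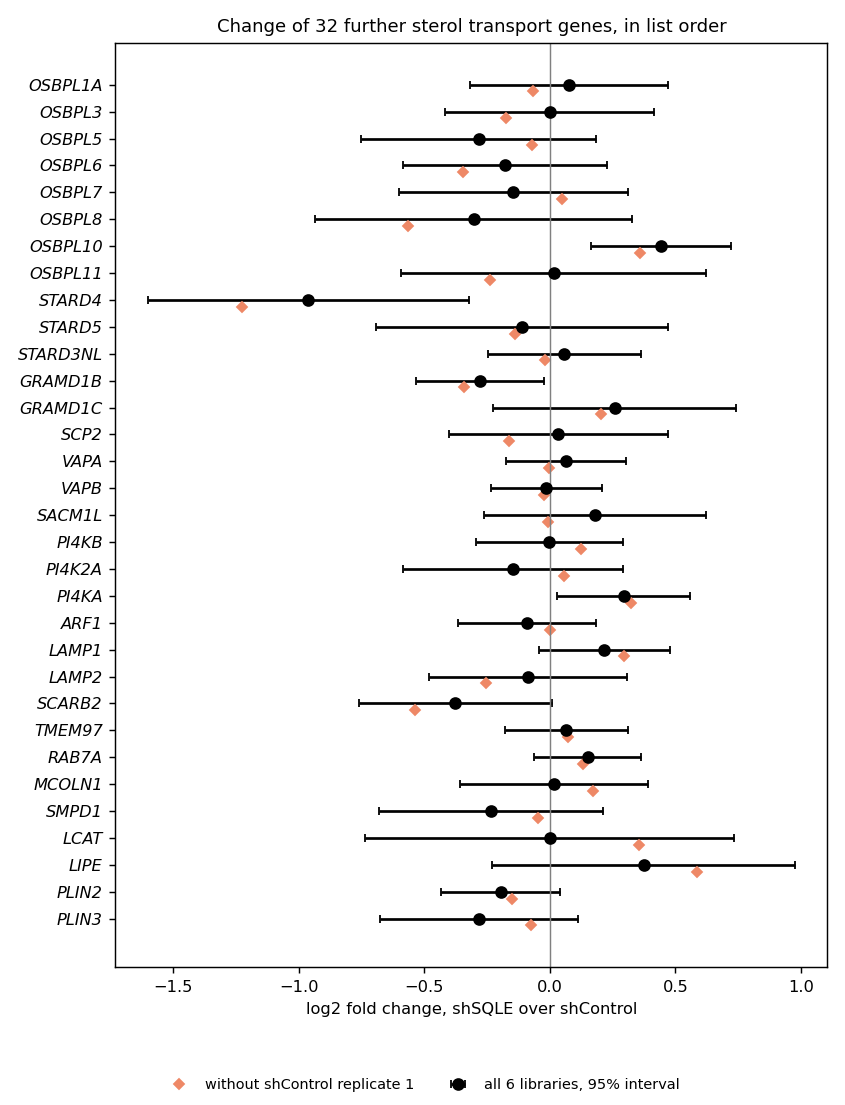
Log2 fold change of shSQLE over shControl (x axis) for the 32 further sterol transport genes that passed the filter, with all 6 libraries (black points, bars are 95% intervals from edgeR's quasi-likelihood test) and without shControl replicate 1 (orange diamonds). STARD4 at -0.96 and OSBPL10 at 0.44 lie at the ends of the range, and none passed an adjusted p of 0.05 with all 6 libraries.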

How the data were processed

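Poly(A) RNA of U2OS cells was sequenced in 6 libraries, 3 of shSQLE and 3 of shControl, grouped by the genotype in the labels. Per the submitters' processing notes, fastp 0.20.0 was used for trimming, STAR 2.7.9a for alignment (hg38) and featureCounts 2.0 for counting. The table the authors deposited holds whole counts of reads by gene, not normalized. The annotation release, strand setting and handling of multi-mapping reads are not given in the sources used here.

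Identifiers were matched to symbols and positions of GENCODE v44 on hg38 (19905 of 19937). Counts were analysed in R 4.3.3 with edgeR 4.0.16 (filterByExpr, TMM, quasi-likelihood test of condition, Benjamini-Hochberg adjustment over all 12450 genes tested). The same steps were run on simulated counts, which held no library that stood apart and no trend with GC content or length. The standard error is the log2 fold change divided by the square root of F. The 95% intervals and log2 CPM (prior count 2) came from the same fit. TPM used canonical transcript lengths. Ratios used an exact permutation test. DESeq2 1.42.0, other size factors and filters, a replicate block, GC content and length offsets (mgcv 1.9.3) and leaving out each library were alternatives. The members and lists were chosen with earlier results of these data known. Named genes are the members, SQLE, genes overlapping a member, related genes called or with the smallest p of their list, and the 3 genes most like the member of smallest p. GRAMD1B, LAMP1, LAMP2, OSBPL8, VAPA, VAPB and the genes that did not pass the filter were named after their values were seen.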

Additional observations from a re-analysis of the deposited data

How the results depend on the processing

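NPC1 was negative in all 13 alternatives. The count of called members was 1 with all libraries, 3 with GC content and length offsets, and 0 to 4 when each library was left out. Over all genes tested the count was 400 (3.21%), and it was 714 with DESeq2 (5.15%) and 2588 with the offsets (20.8%). Without each library it was 109 to 4264 (0.864% to 33.9%), the highest without shControl replicate 1. The 2 fits that called the most members, with the offsets and without shControl replicate 1, were also those that called the largest shares of all genes. The related genes called were 0, but 2 with DESeq2, 8 with the offsets and 0 to 9 without each library. Signs turned for OSBPL9 (-0.026 with library size only, -0.092 to 0.10 without each library), STARD3 (0.045 with the offsets, -0.15 to 0.26), GRAMD1A (0.030 with the offsets, -0.15 to 0.14), SOAT1 (-0.027 to 0.27), NCEH1 (-0.065 to 0.33) and the log2 ratio of SOAT1 to NCEH1 (-0.18 to 0.048); the cause was not tested. The offsets were estimated from the same counts that were then tested.

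With the replicate number as a replicate block, 396 genes were called, 1 of them a member, and STARD3 was at 0.011. Deviations of same-numbered libraries correlated at 0.14, -0.43 and 0.54, and not every library matched best with its own number, so the labels' numbers were not taken as pairs. Counts of 305 to 2497 per member and library leave counting error small beside the spread between shControl libraries.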
